A study of Mus musculus with 2 samples.

Results

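The Ighg2c and Ighg2b interval of the mouse immunoglobulin heavy chain (Igh) locus was described here by its contacts in resting splenic B cells, as measured by chromosome conformation capture carbon copy (5C). In 5C, chromatin is crosslinked, cut (here with HindIII) and religated, and each read counts 1 ligation between a fragment with a forward primer (F) and a fragment with a reverse primer (R). The interval was taken as every primer-bearing fragment whose midpoint lay at or above position 114518000 and below 114556000 of chromosome 12 (mm9 build). This gave 5 of the 206 fragments, 3 with forward primers (F40, F43 and F46) and 2 with reverse primers (R41 and R44). A member was any forward-by-reverse pair with an end in the interval, which was 514 of 10584 pairs. The bounds are approximate positions for the Ighg2c and Ighg2b genes with their switch regions, and no fragment was assigned to a single gene, because a gene annotation of the files' build was not used here. RefSeq's GRCm38.p6 gene order places Ighg2c and then Ighg2b between Ighe and Ighg1, as the names of the intervals used below assume.

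Both libraries came from unstimulated B cells of C57Bl/6 mouse spleen, kept as the CD43-negative fraction by magnetic beads. They are the study's 2 biological replicates and form its 1 group. There is no second condition, and with 2 libraries an exact two-sided sign-flip test cannot go below a p of 0.5, so no test was run. Every comparison below is a description, with the value in each library or the mean ± SD over the 2. Library totals were 16067416 counts in replicate 1 and 15096402 in replicate 2. Contact measurements hold no marker genes, so the labelled cell type was not checked. The pairs shared primers and partners, and are not independent measurements of each other.

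Ighg2c and Ighg2b encode the constant regions of the IgG2c and IgG2b heavy chains, and Ighg2c is the C57BL/6 counterpart of the Ighg2a gene of other strains. A resting B cell expresses IgM and IgD. After activation, class switch recombination joins the switch region before Ighm to the switch region of a downstream constant gene and removes the DNA between them. The enhancers downstream of Igha, called the 3′ enhancers here, are needed for transcription of the switch regions of both genes and for switching to them. Eμ is the intronic enhancer between the joining (JH) segments and Ighm, and the variable (VH) genes fill the other end of the locus.

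In these libraries the interval had its highest median contact, for the distance, with the 3′ enhancers. The other constant genes followed. Eμ-JH and the VH genes lay lower, and the diversity (D) segments with IGCR1, the insulator between VH and D, lay lowest. This order changed where the strength of single primers was taken out, and the values obtained that way are given beside the others.

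Each contact was set against the count expected for its distance. The observed/expected value was log2(count + 1) minus a smooth curve of log2(count + 1) against log10 distance, drawn through all pairs of the library. Left out were 81 pairs of adjoining fragments with 1 HindIII site in common, which may stay joined where that site is not cut. Of the members, 3 shared a site: F40-R41 had 93565 and 76975 counts in replicates 1 and 2, F43-R44 had 149487 and 137452, and F40-R39 had 24009 and 20954. The other 511 members are described below, of 10503 pairs fitted in all. None of the 511 had a count of 0 in either library, so no member was lost to a filter on low values.

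The 5 fragments differed in how many counts their primers gave. R44 (114539129 to 114547720) had 226983 and 206695 counts over its pairs and ranked 7 among 108 reverse primers in both libraries. Its median count per pair was 636 and 606, where the median over reverse primers was 109.5 and 103.5. R41 (114528706 to 114531105) had a median of 324 counts in each library. F40 (114522182 to 114528705), at the Ighe end of the interval, had medians of 307.5 and 300. F43 (114537058 to 114539128) had medians of 265 and 226. F46 (114551907 to 114557959), at the Ighg1 end, had the lowest median, of 69.5 in both libraries against 106.5 and 102.25 over forward primers. Its total counts (62934 and 55155) nevertheless ranked 30 and 32 among 98 forward primers. The median observed/expected value over all partners was likewise highest for R44, at 2.81 and 2.97, and lowest for F46, at -0.47 and -0.16. Whether such differences come from the primers or from the fragments' contacts was not tested. The rule's bounds left out R39, with its midpoint 1827 bp below the lower bound, and R48, 2828.5 bp above the upper one.

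**Figure D1:**
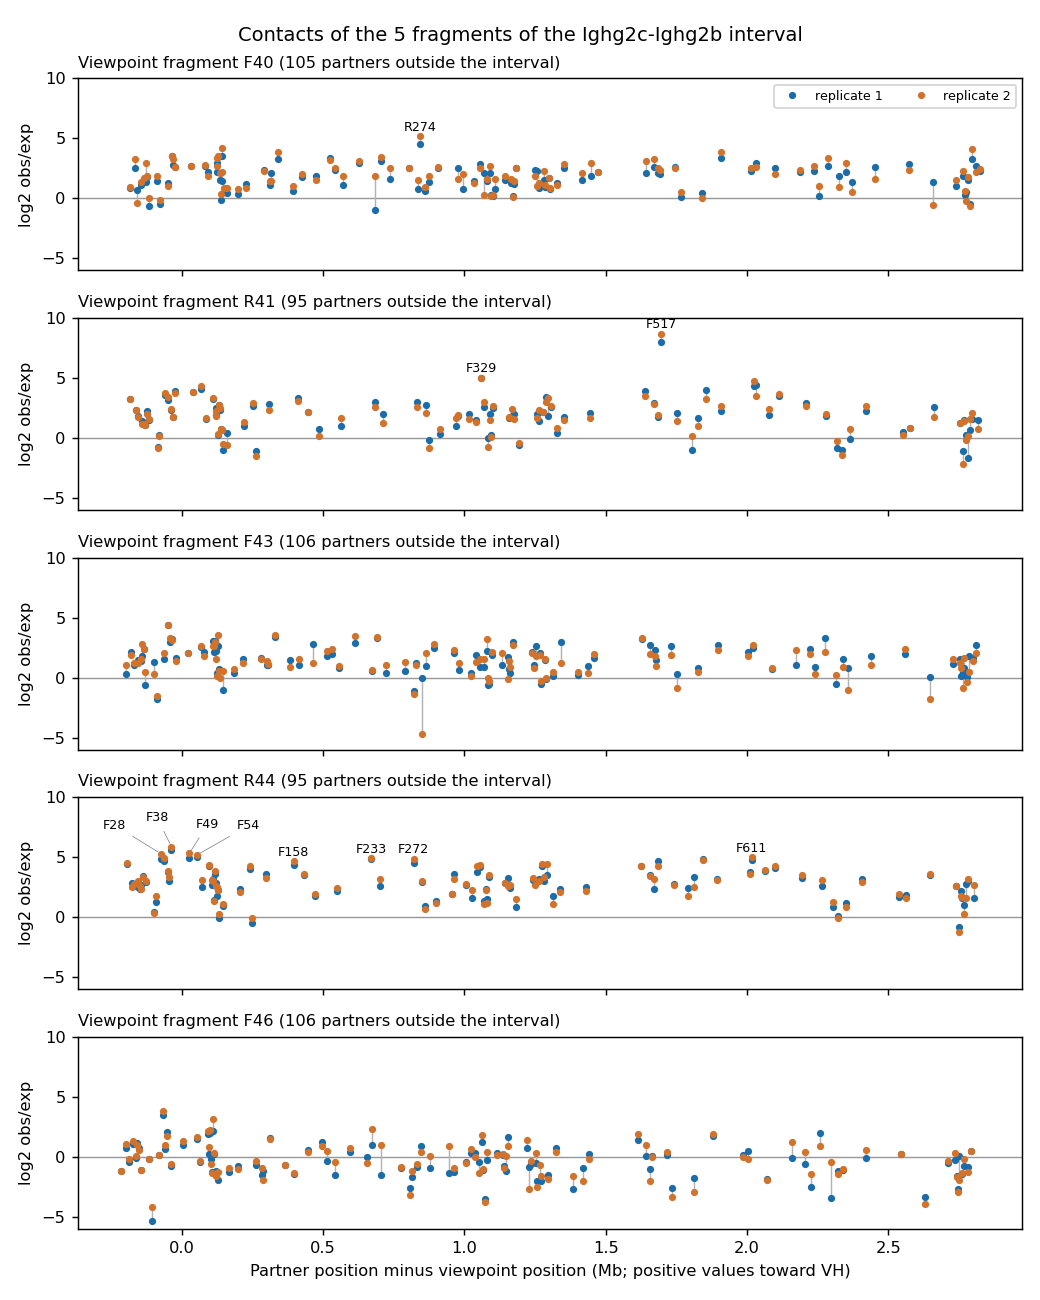
Observed/expected contact (log2, vertical axis) of each of the 5 fragments with its partners outside the interval, by distance of the partner (Mb, positive toward VH), with 1 point per library joined by a grey line. R44 lies above 0 along most of the locus and F46 around or below it, and the labelled partners are the 11 pairs with z of 2 or more in both libraries.

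The 3′ enhancers were represented by 5 fragments (F25, F28, F31, R29 and R33, spanning 114449888 to 114491122), which gave 12 pairs with the interval at 36.6 to 93.1 kb. F28-R44 had 11940 counts in replicate 1 and 12823 in replicate 2, where the distance curve gave 423 and 328. F31-R44 had 12104 and 11476 counts, and F43-R33 had 12665 and 9674. These were the highest of the 12, at 5.05 ± 0.33, 4.82 ± 0.21 and 4.41 ± 0.0011 in log2 observed/expected (SD, n = 2). R33, the enhancer fragment nearest to the constant genes, was also high with F40 (8714 and 6556 counts) and with F46 (5238 and 5170). F28-R41 had 6071 and 5225 counts, and F31-R41 5199 and 4645. So each of the 5 interval fragments had at least 1 enhancer contact above 3 in both libraries, before any correction for primers. With primer effects removed, as described below, F40-R33 stood at -1.27, F31-R41 at -1.01 and F31-R44 at -0.43. F43-R33 stood at 0.0096, F28-R41 at 0.10, F28-R44 at 0.53 and F46-R33 at 0.98.

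The remaining 5 enhancer pairs were lower and all of them involved F25 or R29 as the enhancer end. F43-R29 had 1445 and 1525 counts, F40-R29 had 1371 and 922, and F25-R44 had 865 and 937. F25-R41 had 463 and 338 counts. F46-R29 was lowest, with 429 and 346 counts and 0.15 ± 0.034 in log2 observed/expected, which is near its expected value. All 12 pairs were above 0 in both libraries, where 49.4% of all pairs fitted were, and 7 were above 2 in both, where 14.3% of all pairs were. The median over the 12 was 3.33 and 3.45, or 3.39 ± 0.081, against 0.30 ± 0.036 over all pairs fitted.

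**Figure D2:**
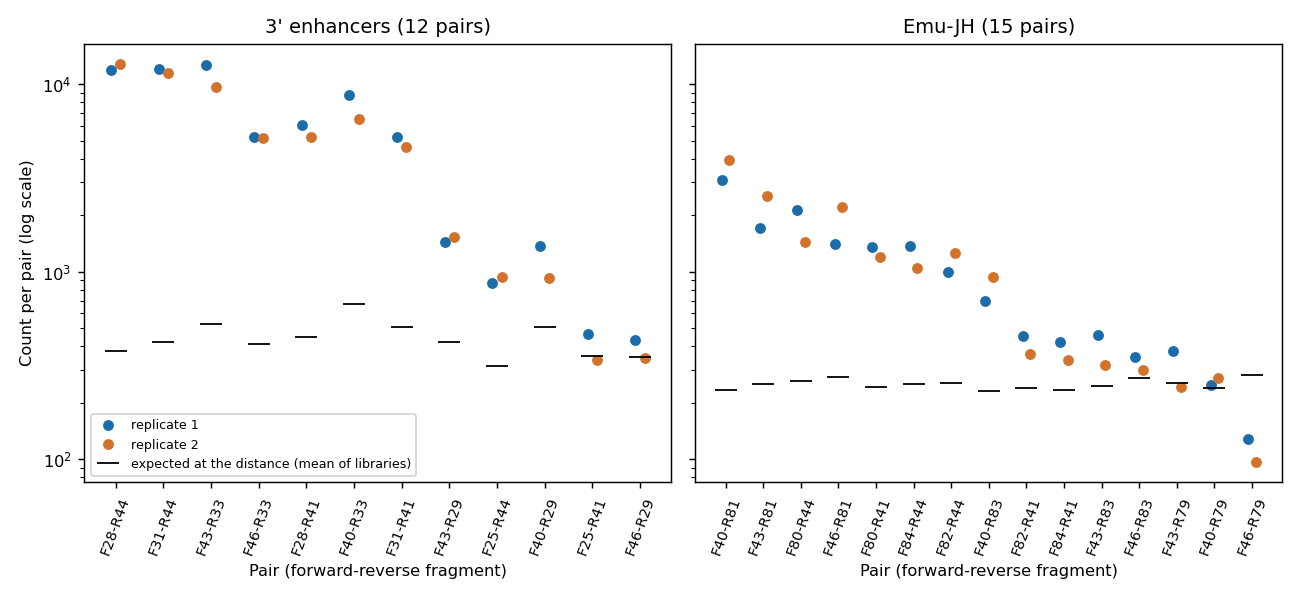
Counts per pair (log axis) of the interval's 12 pairs with the 3′ enhancers and 15 pairs with Eμ-JH in the 2 libraries, ordered by observed/expected, with a bar at the count expected for the distance. The 7 enhancer pairs with F28, F31 or R33 lie far above their bars in both libraries, and F25-R41 and F46-R29 lie near theirs.

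The enhancer fragments themselves give a profile along the constant genes. From R33, the count was 51185 and 44638 with F38, just outside the interval on its Ighe side at 17.6 kb. It was 8714 and 6556 with F40 at 36.6 kb, 12665 and 9674 with F43 at 49.2 kb, and 5238 and 5170 with F46 at 66.1 kb. Beyond the interval it was 15891 and 14065 with F49 at 80.8 kb and 14673 and 13471 with F54 at 109 kb. With F58, at 127 kb, it was 2168 and 2181. Contact from R33 thus did not fall steadily with distance. F49 and F54, toward Ighg1 and Ighg3, had more counts than the 3 interval fragments in both libraries, and F58 had fewer. From F28, the count was 20589 and 19087 with R35 at 25.4 kb and 11097 and 8802 with R37. R39, just below the interval at 46.2 kb, had 1573 and 1175 counts, R41 had 6071 and 5225 at 59.9 kb, and R44 had 11940 and 12823 at 73.4 kb. R48, just above the interval at 88.8 kb, had 3731 and 3179. Both interval fragments were thus above the fragments next to them. The contact of F28 with R44 (5.05 in log2 observed/expected) was not its highest for the distance, since R70 stood at 5.24 with 8483 and 6525 counts at 178 kb, R75 at 5.35 with 7872 and 7752, and R81 in Eμ-JH at 6.11 with 10915 and 14654 at 196 kb. With primer effects removed, as described below, R41 (0.10) was no longer above R39 (0.28), and R70, R75 and R81 (1.19 or more) remained above R44 (0.53). From R33 the values then were -1.27 with F40, 0.0096 with F43, 0.98 with F46, 1.63 with F49, 0.65 with F54 and 1.14 with F58. There F49 stayed above the 3 interval fragments and F58 was above them too, but F54 was below F46.

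**Figure D3:**
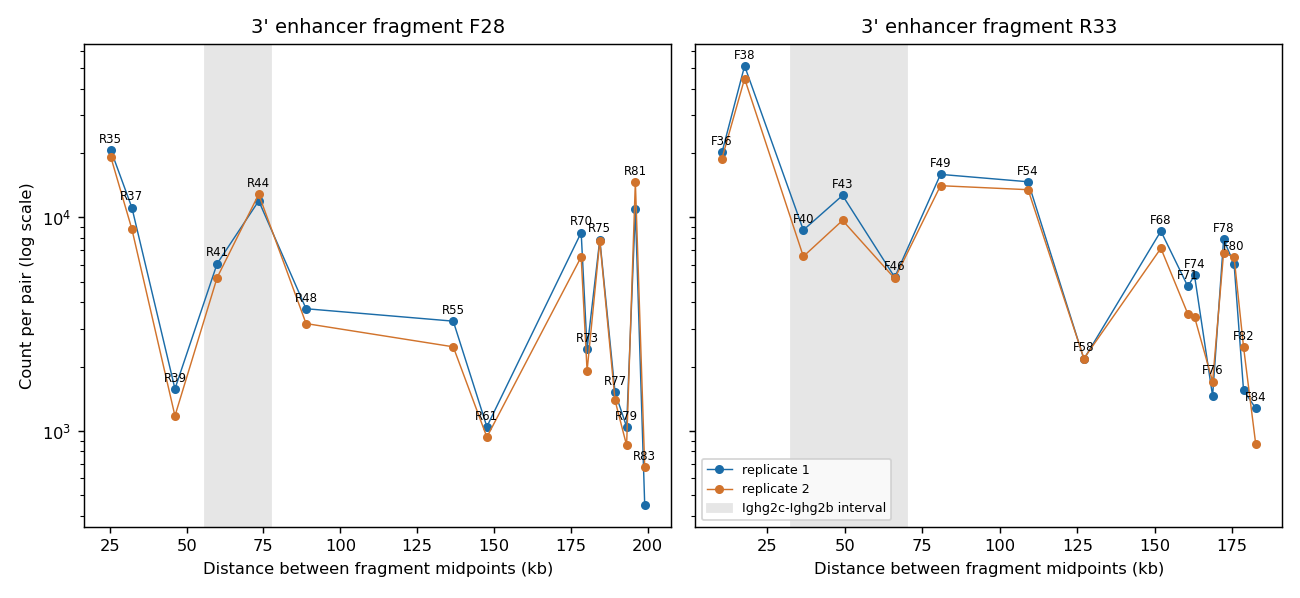
Counts (log axis) of 3′ enhancer fragments F28 and R33 with constant-gene and Eμ-JH fragments, by distance between midpoints (kb), in the 2 libraries, with the interval shaded. From F28 the count rises within the interval to R44 (11940 and 12823) and is lower at R48 just beyond it. From R33 the interval's 3 fragments lie below F49 and F54 and above F58.

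The other constant genes gave 51 pairs, of which 48 were above 0 in both libraries (49.4% over all pairs), with a median of 2.59 ± 0.054. With the Igha-Ighe interval the median was 2.67 and 2.90 over 14 pairs. F38-R44, at 36.9 kb, had 37600 and 33903 counts and 5.76 ± 0.18, about 54.1 times the expected count and the highest of 61 pairs within 10% of its distance. F38-R41 had 17414 and 11451 counts (3.85 ± 0.14). The lowest pair was F46-R39, with 426 and 367 counts (-0.68 ± 0.13). With the Ighg1-Ighg3 interval the median was 2.55 and 2.62 over 15 pairs. F49-R44 had 31995 and 30720 counts at 26.3 kb (5.15 ± 0.24), and F54-R44 had 17654 and 15457 at 54.5 kb (5.11 ± 0.14), and each ranked 1 among pairs of like distance. With primer effects removed, as described below, F38-R44 stood at 0.54, F38-R41 at -0.41 and F46-R39 at 0.61. F49-R44 then stood at 1.85 and F54-R44 at 0.58.

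With Ighd-Ighm, the genes expressed in the resting cell, the median over 22 pairs was 2.36 and 2.61 at 93.4 to 134 kb. F68-R44 was highest there, with 6646 and 5458 counts (4.32 ± 0.042). F40-R75 had 3046 and 2491 counts (3.47 ± 0.030), and F46-R77 was lowest, with 288 and 163 (-0.40 ± 0.34). The median for the 3′ enhancers was above that for the other constant genes by more than the SD over libraries of either.

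Within the interval, 3 of the 4 pairs were high. F46-R44 had 18189 and 14664 counts (3.06 ± 0.064), F43-R41 had 22743 and 16180 (2.80), and F46-R41 had 7026 and 5332 (2.73). F40-R44 was the exception, with 437 and 704 counts at 18.0 kb and -1.19 ± 0.77 in log2 observed/expected. It joins fragments at both sides of the R41-F43 stretch, ranked 35 of 47 pairs within 10% of its distance, and lay below the curve in both libraries. F40 was high with fragments on the far side of R44: F40-R48 had 5505 and 4172 counts at 33.4 kb, and F40-R55 had 2585 and 2065 at 81.3 kb, each at 2.74. R44 was high with F38 and with F49 on either side, so that both fragments of the low pair were high with other partners. The 3 high pairs had negative values, of -0.82, -1.09 and -0.13, where the distance curve was fitted to raw counts over all pairs. With primer effects removed, as described below, F46-R44 stood at 0.78, F43-R41 at -0.27, F46-R41 at 1.49 and F40-R44 at -5.50. F40-R48 and F40-R55 then stood at -0.34 and -0.54, and F38-R44 and F49-R44 at 0.54 and 1.85.

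With Eμ-JH (114662159 to 114672758), the median over 15 pairs at 108 to 144 kb was 1.43 in replicate 1 and 2.18 in replicate 2, or 1.80 ± 0.53. The libraries differed most in this class among those compared, and without R44 the median was 0.74, as an alternative chosen after seeing the data. R81 carried the highest values. F40-R81 had 3087 and 3927 counts (3.89 ± 0.48), F43-R81 had 1704 and 2535 (3.06 ± 0.64) and F46-R81 had 1399 and 2199, so replicate 2 was higher with all 3 forward primers. F80-R44 had 2126 and 1432 counts (2.75 ± 0.17), and F84-R44 had 1373 and 1045. F46-R79 was lowest, with 128 and 96 counts (-1.32 ± 0.052). Of the 15 pairs, 13 were above 0 in both libraries. With primer effects removed, as described next, F40-R81 and F43-R81 stood at -0.66 and -1.09 and F46-R79 at 0.65.

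Values compared within 1 fragment do not depend on that fragment's own primer strength. For R41, the median with the 3′ enhancers (3.28 ± 0.16) was above that with Eμ-JH (0.77 ± 0.015) by 2.51 ± 0.14. For R44 the medians were 4.82 ± 0.21 and 2.39 ± 0.13, a difference of 2.44 ± 0.083. F43 differed by 2.48 ± 0.31 and F46 by 1.65 ± 0.062. F40 differed by 0.95 and 0.10 in the 2 libraries, which is 0.53 ± 0.60 and not beyond the spread. The median with the 3′ enhancers was thus above that with Eμ-JH for all 5 fragments in both libraries, with F40 the least clear. Each of these medians was over 2 or 3 pairs. Forward and reverse fragments have different partners, so the 5 are not repeats of 1 comparison. A median can also hide a high pair. F40-R81 (3.89) was above the enhancer median of F40 (2.33), and F43-R81 (3.06) was just below that of F43 (3.12). Against the other constant genes the differences were smaller, at 0.82 ± 0.24, 1.11 ± 0.036, 0.62 ± 0.00055 and 0.92 ± 0.055 for R41, R44, F43 and F46. F40 went the other way, at -0.40 ± 0.079.

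The strength of the partners' primers still enters those differences. It was removed by taking out an additive effect of each forward and each reverse primer, estimated over all pairs of the library. By construction this also removes whatever a fragment has in common with all of its partners. The median with the 3′ enhancers then was -0.14 and 0.083, or -0.026 ± 0.15, against 0.052 over all pairs. The other constant genes stood at 0.36 ± 0.071, with Ighg1-Ighg3 highest (0.57 ± 0.0065), Ighd-Ighm at 0.39 ± 0.044 and Igha-Ighe at -0.14 ± 0.12. Eμ-JH stood at -0.26 ± 0.046. Of the 12 enhancer pairs, 3 were above 0 in both libraries and 4 below, and of the 51 pairs with the other constant genes 28 were above and 19 below, where 4021 of all pairs fitted were above and 3536 below. The within-fragment difference between 3′ enhancers and Eμ-JH became 0.41 ± 0.23 for R41, 1.15 ± 0.20 for F43, 0.31 ± 0.28 for F46 and -0.44 ± 0.26 for F40. For R44 it was -0.31 in replicate 1 and 0.81 in replicate 2. So the 3′ enhancers kept their lead over Eμ-JH in both libraries for R41, F43 and F46, which for F46 was small against the spread. Against the other constant genes the differences were -0.22 ± 0.022 for R41, 0.15 ± 0.23 for F43, -0.25 ± 0.45 for R44, 0.14 ± 0.026 for F46 and -0.77 ± 0.27 for F40. The lead of the 3′ enhancers there was seen in both libraries for F46 alone.

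**Figure D4:**
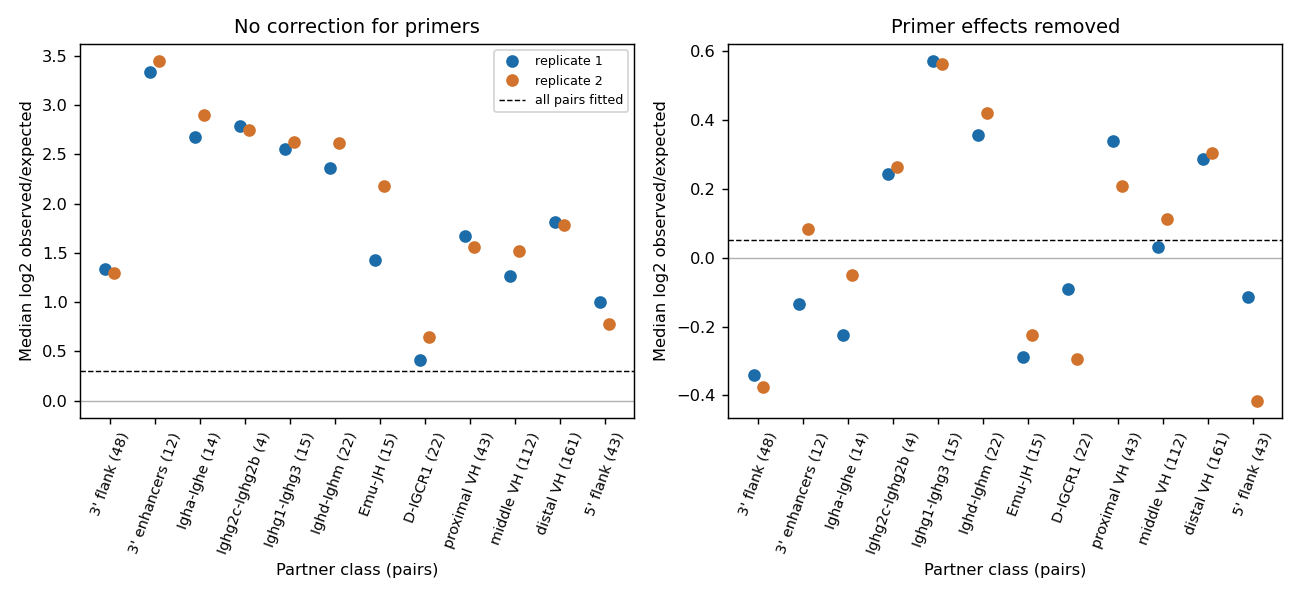
Median log2 observed/expected of the interval's pairs with each class of partner in the 2 libraries, with the number of pairs in brackets, before (left) and after (right) primer effects were removed. The dashed line is the median of all pairs fitted, and the 3′ enhancers lead on the left (3.33 and 3.45) but lie near the line on the right (-0.14 and 0.083), where Ighg1-Ighg3 is highest.

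In counts, the short-range partners held most of the signal. The 3′ enhancers took 11.98% of the 555305 member counts of replicate 1 (95% Wilson interval 11.9% to 12.1%) and 12.1% of the 494285 of replicate 2. Igha-Ighe took 19.4% and 18.0%, and Ighg1-Ighg3 19.0% and 18.8%. Eμ-JH took 2.73% and 3.33%. The distal VH genes, with 161 pairs, took 10.9% and 12.8%. Of their 60550 and 63301 counts, 13829 and 20537 came from 1 pair, F517-R41, described below. Such intervals cover counting error only. The libraries differed by more than that for several classes, among them Igha-Ighe, Eμ-JH and distal VH.

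Between Eμ-JH and the VH genes, the D segments and IGCR1 gave 22 pairs at 119 to 263 kb, with a median of 0.53 ± 0.17 that lay closer to the median of all pairs than any other class did. F115-R44 and F115-R41 stood above the rest, with 2816 and 2719 counts (4.17) and 1046 and 1003 counts (2.82). F103-R44 had 1029 and 660 counts (2.22), and F46-R90, with 74 and 92, was lowest (-1.58). For 11 of the 22 pairs the value was above 0 in both libraries, which is about the 49.4% of all pairs. With primer effects removed, F115-R44 and F115-R41 stood at -0.059 and -0.48, and the class median was -0.19 ± 0.14. This median was above that of the 3′ flank in both libraries. Against Eμ-JH it was higher in replicate 1 (-0.091 and -0.290) but lower in replicate 2 (-0.295 and -0.225). F115 (114778143 to 114787052) lies at the VH end of the class.

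The VH genes gave 316 pairs over 262 to 2660 kb. Their median was 1.60 ± 0.00019, 248 of the 316 pairs were above 0 in both libraries (49.4% over all pairs), and 105 (33.2%) were above 2 in both, where 14.3% of all pairs were. The median did not fall with distance from the interval. It was 1.61 ± 0.075 with the proximal VH genes (262 to 625 kb), 1.39 ± 0.18 with the middle (655 to 1194 kb) and 1.80 ± 0.021 with the distal ones (1221 to 2660 kb). These medians are relative to the curve. The median count was 193.5 and 172 over the VH pairs, against 103 and 94 over all pairs fitted. The pair lowest in observed/expected, F46-R788, had 7 and 4 counts (-3.66). By fragment the VH medians were 2.99 ± 0.048 for R44, 1.97 ± 0.014 for F40, 1.95 ± 0.037 for R41, 1.33 ± 0.0054 for F43 and -0.44 ± 0.25 for F46. With primer effects removed, the medians of the 5 fragments came to between 0.10 and 0.30, and the median of all VH pairs was 0.23 ± 0.017. The flanks of the locus gave 1.31 ± 0.030 (3′ flank, 48 pairs) and 0.89 ± 0.16 (5′ flank, 43 pairs), and -0.36 ± 0.025 and -0.26 ± 0.21 with primer effects removed.

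Single contacts were called where z, the observed/expected value divided by the local spread of that value at the same distance, was 2 or more in both libraries. Detection in both replicates is the study's own criterion, and the cutoff was chosen here. Over all pairs fitted, 0.724% were called (76 of 10503), and 11 of the 511 members were (2.15%). Of these 11, 8 lay on R44. They were F38, F49, F54 and F28, described above, and 4 VH partners at longer range. F233-R44 had 2057 and 1830 counts at 670 kb (4.89 ± 0.046), F611-R44 had 1662 and 1836 at 2017 kb (4.86 ± 0.17), F272-R44 had 1396 and 1593 at 820 kb (4.71 ± 0.26), and F158-R44 had 2162 and 2193 at 396 kb (4.52 ± 0.20). These R44 pairs fell to between -0.072 and 1.85 with primer effects removed, and none of the 8 was called there. Without R44, 3 members were called. A fit on raw counts over all pairs called 13 of 514 members (2.53%), where 1.45% of all pairs were called, and 7 of the 11 were among the 13. The values ran through the cutoff without a gap: F556-R44 had z of 2.05 and 1.96, and F415-R44 had 1.94 and 1.93.

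The 3 calls on other fragments were long-range contacts with VH fragments. F517-R41 was the highest member, with 13829 and 20537 counts at 1697 kb and 8.35 ± 0.46 in log2 observed/expected, about 327 times the expected count and the highest of 923 pairs within 10% of its distance. F517 spans 116222484 to 116231679 in the distal VH genes. F40-R274 had 1368 and 1946 counts at 842 kb (4.85 ± 0.48), the highest of 708 pairs of like distance, and R274 spans 115364817 to 115370798 in the middle VH genes. F329-R41 had 1914 and 1687 counts at 1058 kb (5.01 ± 0.035), and F329 spans 115586578 to 115589686.

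Most pairs of neighbouring fragments had lower counts. F517 had 1389 and 946 counts with R44, and its neighbour F513 had 180 and 186 with R41. R514, the nearest reverse fragment to F517, had 221 and 249 counts with F40. R274 had 141 and 107 counts with F43 and 18 and 23 with F46, and F40 had 105 and 152 with R271 and 89 and 102 with R280. F272, the nearest forward fragment to R274 at 4.69 kb, had 482 and 324 counts with R41 but 1396 and 1593 with R44, the called pair given above, which stood at 0.72 with primer effects removed. F329 had 769 and 1040 counts with R44, and F324 had 160 and 128 with R41. The counts of F517-R41 were thus above those of the adjoining pairs named here in both libraries, while those of F40-R274 were in the range of F272-R44.

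With primer effects removed, 1.2% of all pairs were called (126 of 10503) and 4 of the 511 members (0.783%). F517-R41 (5.49 ± 0.52) ranked 10 among all 10503 pairs and F40-R274 (3.72 ± 0.26) ranked 28. F40-R628 (2.59 ± 0.19), with 368 and 240 counts, and F609-R41 (2.42 ± 0.35), with 1261 and 1554, were the other 2. F609 (116553198 to 116556522) and R628 (116622296 to 116627666) both lie in the distal VH genes. F329-R41 stood at 2.01 ± 0.070 and was not called there. At the other end, F40-R44 stood at -5.50 ± 0.64, the lowest of all 10503 pairs.

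**Figure D5:**
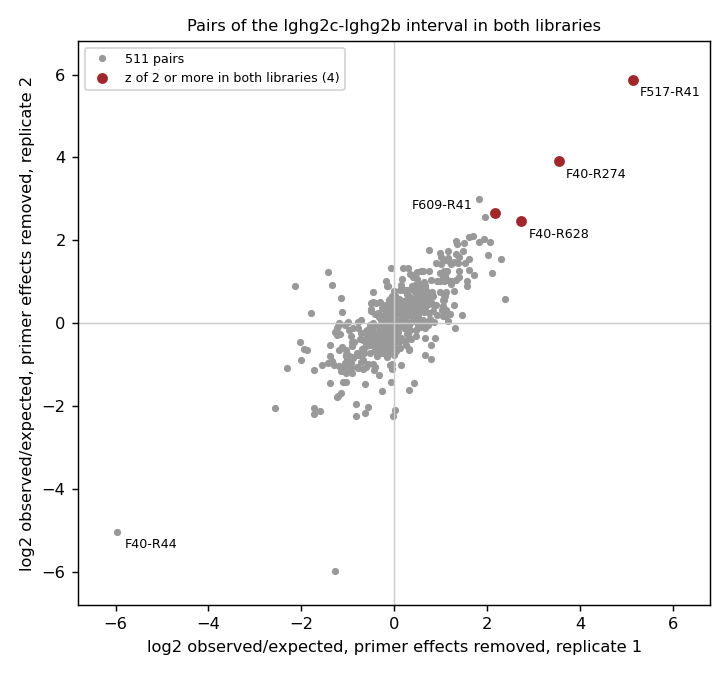
Log2 observed/expected with primer effects removed of the 511 members in replicate 1 (horizontal) and replicate 2 (vertical). F517-R41 and F40-R274 lie apart from the rest at the upper right and F40-R44 at the lower left, and the 4 called pairs are in red.

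The libraries ordered the members alike. Across the 511 pairs, which share primers and distances, Spearman's rho between replicates was 0.929 for observed/expected and 0.738 with primer effects removed, against 0.901 and 0.592 over all pairs. The median absolute difference between replicates was 0.34, and 0.50 over all pairs. The largest gap was at F43-R280, with 58 counts in replicate 1 and 1 in replicate 2. The partner profiles of the fragments were also alike, with rho of 0.946 between R41 and R44 over 95 partners and of 0.787 between F40 and F43, 0.834 between F43 and F46 and 0.668 between F40 and F46 over 105. With primer effects removed these were 0.735, 0.719, 0.536 and 0.355.

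The intervals on either side, Igha-Ighe and Ighg1-Ighg3, share their partners with Ighg2c-Ighg2b and were described the same way. To the 3′ enhancers, the Ighg2c-Ighg2b median of 3.39 ± 0.081 was above that of Igha-Ighe (1.93 ± 0.049, 14 pairs) by more than the spread over libraries. Ighg1-Ighg3 stood at 2.90 ± 0.40 over 15 pairs, and its value of 3.18 in replicate 2 was close to the 3.45 of Ighg2c-Ighg2b. To Eμ-JH, Ighg2c-Ighg2b (1.80 ± 0.53) and Igha-Ighe (1.81 ± 0.18) were not told apart, and Ighg1-Ighg3 had 0.59 ± 0.29. To Ighd-Ighm the order was Igha-Ighe (2.98 ± 0.029), Ighg2c-Ighg2b (2.49 ± 0.18) and Ighg1-Ighg3 (0.93 ± 0.17). To the VH genes it was 1.52 ± 0.046, 1.60 ± 0.00019 and 1.07 ± 0.0045.

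Primer effects moved part of this comparison. With them removed, the medians to the 3′ enhancers were -0.40 ± 0.065 for Igha-Ighe, -0.026 ± 0.15 for Ighg2c-Ighg2b and 0.51 ± 0.11 for Ighg1-Ighg3, so that Ighg2c-Ighg2b lay between its neighbours. To Eμ-JH they were 0.055 ± 0.13, -0.26 ± 0.046 and -0.39 ± 0.0998 in the same order. To Ighd-Ighm they were 0.84 ± 0.0096, 0.39 ± 0.044 and 0.027 ± 0.047, so the ranking of the 3 intervals seen before removal was kept. To the VH genes they were 0.18 ± 0.070, 0.23 ± 0.017 and 0.19 ± 0.030, which differed by less than the spread of Igha-Ighe over libraries.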

How the data were processed

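The deposited values were read counts, 1 per forward-by-reverse primer pair, in a my5C all-by-all table for each library, per the file headers, which also name a step called transpurge. Novoalign and the mm9 build are named in the submitters' processing notes, with settings, filters and duplicate handling not given in the sources used here. Pairs of the chromosome 5 gene desert were not analysed here. Each library was fitted alone: log2(count + 1) against log10 distance between fragment midpoints by LOWESS (span 0.2, statsmodels 0.14.6), with 81 site-sharing pairs left out, and z was the residual divided by its local SD (from squared residuals smoothed the same way). Python 3.11.15, numpy 2.4.6, pandas 2.3.3, scipy 1.17.1 and matplotlib 3.10.9 were used, and the calculation was tested on simulated data. Library totals were 16067416 and 15096402 counts. Counts are of reads without molecular identifiers, so intervals cover counting error only.

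Partner classes are windows of fragment midpoints from general knowledge of the locus, and are approximate. Named pairs were all called members, the 3 highest and the lowest in each compared class and D-IGCR1, pairs within the interval, and pairs sharing a site. Pairs set beside these (the other enhancer and Eμ-JH pairs, neighbouring fragments and pairs near the cutoff) were picked once values were known. The members, classes and rules were chosen with earlier results of these data known. Alternatives were the LOWESS span, a fit on raw counts, removal of primer effects, iterative correction (100 rounds), a pseudocount of 10, other z cutoffs, leaving out the weakest primers and leaving out each replicate.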

Additional observations from a re-analysis of the deposited data

How the results depend on the processing

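Each library left out in turn gave 12 to 13 called members, and medians of 3.33 to 3.45 with the 3′ enhancers, 2.55 to 2.63 with the other constant genes, 1.43 to 2.18 with Eμ-JH and 1.60 with VH. The count of called members, 11 as reported, was 35 at z of 1.5, 1 at z of 3, 4 with primer effects removed, 2 with iterative correction, 23 with a pseudocount of 10, and 3 without primer R44, which was an alternative chosen after seeing the data. The other settings of the fit gave 11 to 13. Iterative correction called F40-R274 and F517-R41, which were also called with primer effects removed.

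The medians in the order 3′ enhancers, other constant genes, Eμ-JH and VH were 0.85, 0.38, -0.036 and 0.23 in the fit on raw counts. They were -0.026, 0.36, -0.26 and 0.23 with primer effects removed, and 0.013, 0.26, -0.22 and 0.62 with iterative correction. Leaving out the weakest primers gave 2.78, 1.95, 1.19 and 1.38, and leaving out R44 gave 3.28, 2.22, 0.74 and 1.30. A pseudocount of 10 gave 3.28, 2.46 and 1.23 for the 3′ enhancers, other constant genes and VH. VH was 1.61 at a span of 0.1 and 1.60 at 0.4. Of 28 named pairs, 10 changed sign with primer effects removed, 10 with iterative correction and 4 in the fit on raw counts, and F46-R29 did so without the weakest primers. The called pairs among them were F611-R44 with primer effects removed (-0.072), and F158-R44 (-0.024) and F28-R44 (-1.38) with iterative correction. The cause of these changes was not tested beyond what each setting removes. No paired analysis was possible because there was 1 group only. The median count per pair was lowest for F46, at 69.5 in both libraries. Among its distal VH pairs, F46-R788 had 7 and 4 counts, while F46-R610 had 85 and 50.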
